A study of Mus musculus with 12 samples.

Results

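Stathmins, beta-tubulin isoforms and the microtubule-associated protein gene Map1b were followed in C2C12, a line of mouse myoblasts that stop dividing and form multinucleate myotubes when they differentiate. The 10 genes (Stmn1, Stmn2, Stmn3, Stmn4, Tubb2a, Tubb2b, Tubb3, Tubb5, Tubb6 and Map1b) were found by symbol among 46983 genes with FPKM values, that is fragments scaled by exon length and library depth. The set was chosen by the FPKM of Stmn4, which moved in opposite directions in the 2 cell types, so the values of Stmn4 are described here without a test. RNA was sequenced from WT cells, which the study also calls the PB-IP group, and from PPARγ/+ cells, which carried the PiggyBac vector PB-IP with the coding sequence of PPARγ, a nuclear receptor that drives adipocyte differentiation. PPARγ/+ cells were positive clones under puromycin, and both were taken on 0d, before differentiation, and on 5d of differentiation. There were 3 libraries in each of the 4 groups (WT_0d, WT_5d, PPARγ/+_0d and PPARγ/+_5d) and 12 in all, called biological replicates by the study. The labels do not say that they were separate cultures, so p-values measure the spread between these libraries, which may be technical. The series design speaks of inducible cells with uninduced controls, and the study's methods give no induction step. Selection with puromycin is not stated for the WT cells, so the transgene and the transfection and selection cannot be told apart.

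Microtubules are hollow polymers of alpha- and beta-tubulin dimers. Stathmins bind free tubulin dimers and favour disassembly of microtubules. Stmn1 encodes the soluble stathmin of dividing cells, whereas Stmn2, Stmn3 and Stmn4 encode relatives with an added amino-terminal stretch that anchors them to membranes, best known in neurons. The beta-tubulin isoforms are nearly alike in their core and differ most in the carboxy-terminal tail, which motors, severing enzymes and tubulin-modifying enzymes read. Tubb5 is the common isoform of proliferating cells, Tubb2a, Tubb2b and Tubb3 are best known from neurons, and Tubb6 is widely expressed. In muscle, fusion is accompanied by a rebuilding of the microtubule array from the centrosome to the nuclear envelope and into parallel bundles.

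The coding ends of 4 beta-tubulin genes are shown because they carry the tail, in which the others differ more from Tubb5 than in the rest of the coding sequence. They are the last 75 bases of the coding sequence with the stop codon, 5′ to 3′, from the GENCODE transcripts of GRCm38, and capitals mark bases that differ from Tubb5 in the alignment.
Tubb5: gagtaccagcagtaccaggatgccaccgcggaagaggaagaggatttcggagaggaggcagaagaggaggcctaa
Tubb2a: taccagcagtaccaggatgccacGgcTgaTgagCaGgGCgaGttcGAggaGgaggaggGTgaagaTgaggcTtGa
Tubb2b: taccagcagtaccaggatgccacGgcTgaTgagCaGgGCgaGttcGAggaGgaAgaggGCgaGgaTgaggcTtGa
Tubb3: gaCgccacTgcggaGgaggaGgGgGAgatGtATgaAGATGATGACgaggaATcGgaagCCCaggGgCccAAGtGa
In these 75 bases 16 positions of Tubb2a (21.3%), 18 of Tubb2b (24.0%) and 32 of Tubb3 (42.7%) differed from Tubb5. In the coding sequence before them the shares were 15%, 15.5% and 17.1%. Tubb2a and Tubb2b were 96.5% identical over the aligned coding sequence, whereas all other pairs of the 7 beta-tubulins compared were between 80.2% and 86.0% identical.

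The coding starts of the 3 neuronal-type stathmins are shown because this is the stretch that Stmn1 lacks. They are the first 90 bases, and capitals mark bases that differ from Stmn2 in the alignment.
Stmn2: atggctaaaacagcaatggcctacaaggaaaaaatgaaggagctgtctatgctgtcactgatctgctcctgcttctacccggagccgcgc
Stmn3: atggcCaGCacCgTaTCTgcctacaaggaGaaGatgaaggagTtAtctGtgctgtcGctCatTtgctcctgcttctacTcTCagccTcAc
Stmn4: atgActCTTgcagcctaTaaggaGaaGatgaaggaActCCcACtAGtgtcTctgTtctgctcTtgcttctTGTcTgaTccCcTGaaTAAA
Stmn3 differed from Stmn2 at 21 positions and Stmn4 at 29. The coding sequence of Stmn1 had 450 bases, against 540 in Stmn2, 543 in Stmn3 and 570 in Stmn4. Identity to Stmn1 was 57.8% for Stmn2, 55.0% for Stmn3 and 54.5% for Stmn4.

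In GRCm38, Stmn1 lies at chr4:134468320-134473843, Stmn2 at chr3:8509360-8561606, Stmn4 at chr14:66344296-66361680 and Tubb5 at chr17:35833921-35838306. Tubb2a (chr13:34074274-34078007) and Tubb2b (chr13:34126748-34130466) are neighbours on the minus strand of a chromosome that also holds Map1b (chr13:99421446-99516540). Tubb3 lies at chr8:123411424-123422015 and Stmn3 at chr2:181306459-181314500. The kit did not keep the strand. Of all windows of 100 bases in the transcripts, 36.9% of those of Tubb2a and 27.7% of those of Tubb2b were also found in each other or in the pseudogene Tubb2a-ps2, and 28.9% of those of Stmn1 in the pseudogene Gm11223, so the levels of these 3 genes depend on how shared fragments were counted. No such window was shared by the other 7 members. An exon of Stmn1 also overlaps that of Gm23634.

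The libraries held between 15557884 and 22013302 fragments on genes. Pparg itself was between 3.12 and 7.56 FPKM in the WT libraries and between 28.0 and 92.7 FPKM in the PPARγ/+ libraries, which follows the labels. The cells expressed the muscle markers that the label of a myoblast line implies, and 17 of 20 muscle differentiation markers were called higher on 5d in WT cells and 18 of 20 in PPARγ/+ cells, by the rule given with the first comparison. In WT cells 1 of the 20, the early myogenic factor Myf5, was called lower. WT_5d replicate 3 stood apart: its summed muscle marker level was 1538 FPKM, against 6852 and 5182 FPKM in the other 2 WT_5d libraries and between 1520 and 1833 FPKM in PPARγ/+_5d. Results of the 10 genes that rest on it are given with and without it. Of 15 neuronal markers other than Tubb3, Snap25, Elavl4 and Dcx were at 0 in all 12 libraries, and 9 were under 0.2 FPKM in all 12.

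The first comparison asked how the genes changed during differentiation of WT cells. In limma on log2(FPKM + 0.1), the scale of all differences below, a gene was called where its unadjusted p did not exceed 0.05 and its level changed at least 2-fold. Stmn1, Stmn2, Tubb3 and Tubb5 fell from 0d to 5d, and Tubb2a, Tubb2b, Tubb6 and Map1b were not called. Thus 4 of the 8 members with a test were called, all lower, against 16.5% of all 18023 genes tested, and 7.53% called lower. The 8 are those that passed the filter on low values, without Stmn4. Stmn3 did not pass it. The same number of members, 4 of 8, had groups of libraries that did not overlap, where 51.1% of all genes did.

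In PPARγ/+ cells, Stmn1, Stmn2 and Tubb5 fell from 0d to 5d. These 3 of 8 members compare with 15.2% of all genes called and 6.06% called lower. The other 5 members were not called. The libraries of 6 of 8 members did not overlap between the days, as those of 58.1% of all genes.

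**Figure D1:**
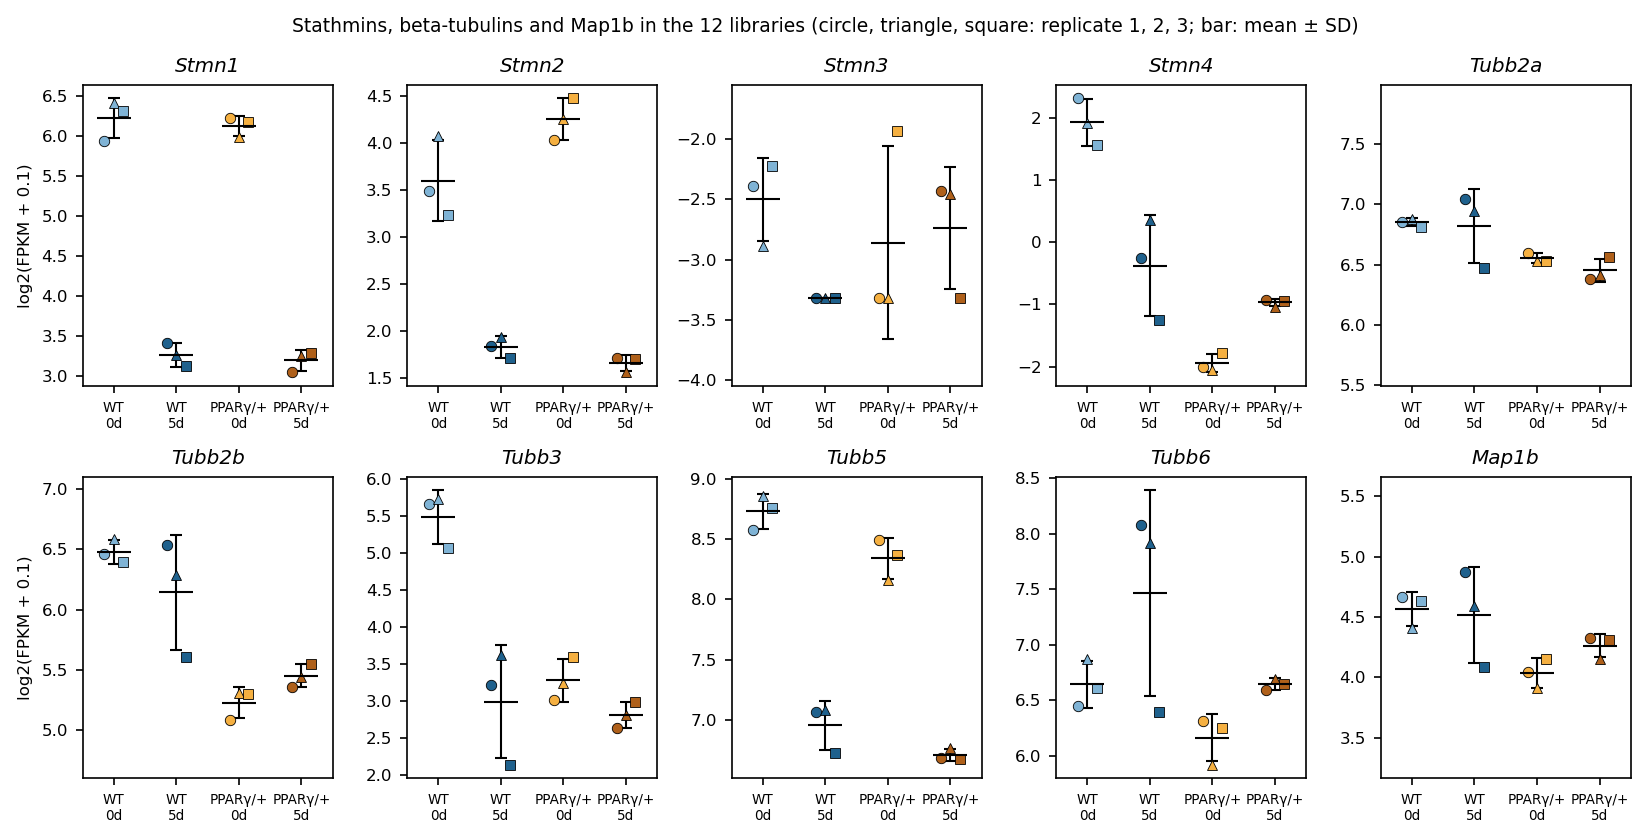
Level of each of the 10 genes as log2(FPKM + 0.1) in the 12 libraries, by group, with the mean and SD of 3 libraries. Stmn1, Stmn2 and Tubb5 are lower on 5d in both cell types, Tubb3 and Stmn4 are highest in WT_0d, and WT_5d replicate 3 (square) is the lowest of its group for every gene but Stmn3, which is at 0 in all 3.

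Stmn1, the soluble stathmin, was expressed at 61.3, 85.3 and 79.4 FPKM in WT_0d and at 10.6, 9.46 and 8.59 FPKM in WT_5d. In PPARγ/+ cells its level was 74.7, 63.4 and 72.0 FPKM on 0d and 8.15, 9.44 and 9.63 FPKM on 5d. All 6 libraries of 0d lay above all 6 of 5d, and within each day the cell types overlapped. The log2 difference of 5d from 0d was -2.96 ± 0.14 (SE, adjusted p = 1.74e-04) in WT cells, a 7.78-fold lower level, and -2.93 ± 0.09 (adjusted p = 1.53e-05) in PPARγ/+ cells, a 7.65-fold lower level. The difference between these 2 changes was 0.02, with a 95% interval from -0.37 to 0.42.

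Stmn2, known as SCG10 and a marker of growing axons, was expressed at 11.2, 16.8 and 9.29 FPKM in WT_0d and at 3.49, 3.74 and 3.17 FPKM in WT_5d. The PPARγ/+ libraries held 16.2, 19.0 and 22.2 FPKM on 0d and 3.18, 2.85 and 3.14 FPKM on 5d. The days did not overlap in either cell type, whereas the cell types overlapped on both days. Stmn2 fell by 1.77 on the log2 scale in WT cells (SE 0.22, adjusted p = 0.00171, 3.41-fold lower) and fell by 2.60 in PPARγ/+ cells (SE 0.12, adjusted p = 2.41e-05, 6.05-fold lower). The interaction was -0.83 (95% interval from -1.40 to -0.25) and did not pass the test over all genes (adjusted p = 0.219). Without WT_0d replicate 2, the highest of its group, it was -1.07 (adjusted p = 0.0494).

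Stmn3 was near the limit of detection. Between 0 and 4 fragments were counted in each library, no group had more than 0.161 FPKM in any library, and 0 fragments were found in all 3 WT_5d libraries. A count of 0 allows up to 3 fragments, so no fold change is given. Fragment counts and floors cover counting error only.

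Stmn4, another membrane-bound stathmin of neurons, was at 4.90, 3.68 and 2.86 FPKM in WT_0d and at 0.738, 1.19 and 0.321 FPKM in WT_5d. In PPARγ/+ cells it was at 0.150, 0.140 and 0.191 FPKM on 0d and at 0.428, 0.388 and 0.421 FPKM on 5d. The WT libraries of 5d lay below those of 0d, and the PPARγ/+ libraries of 5d lay above those of 0d, with no overlap in either cell type. The log2 differences of 5d from 0d were -2.31 in WT and 0.98 in PPARγ/+ cells. The PPARγ/+ value is 1.97-fold on this scale and 2.57-fold as a ratio of the mean FPKM, since the value added to the FPKM shrinks the change of a low gene. On 0d the PPARγ/+ level was lower than the WT level by 3.88 on the log2 scale, and the groups did not overlap, while on 5d the difference was -0.59 and they overlapped. The counts behind these values were between 127 and 182 fragments in WT_0d, between 14 and 44 in WT_5d, 7 or 8 in PPARγ/+_0d and between 15 and 17 in PPARγ/+_5d, all above the floor of 3. Without WT_5d replicate 3 the WT difference was -1.88.

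**Figure D2:**
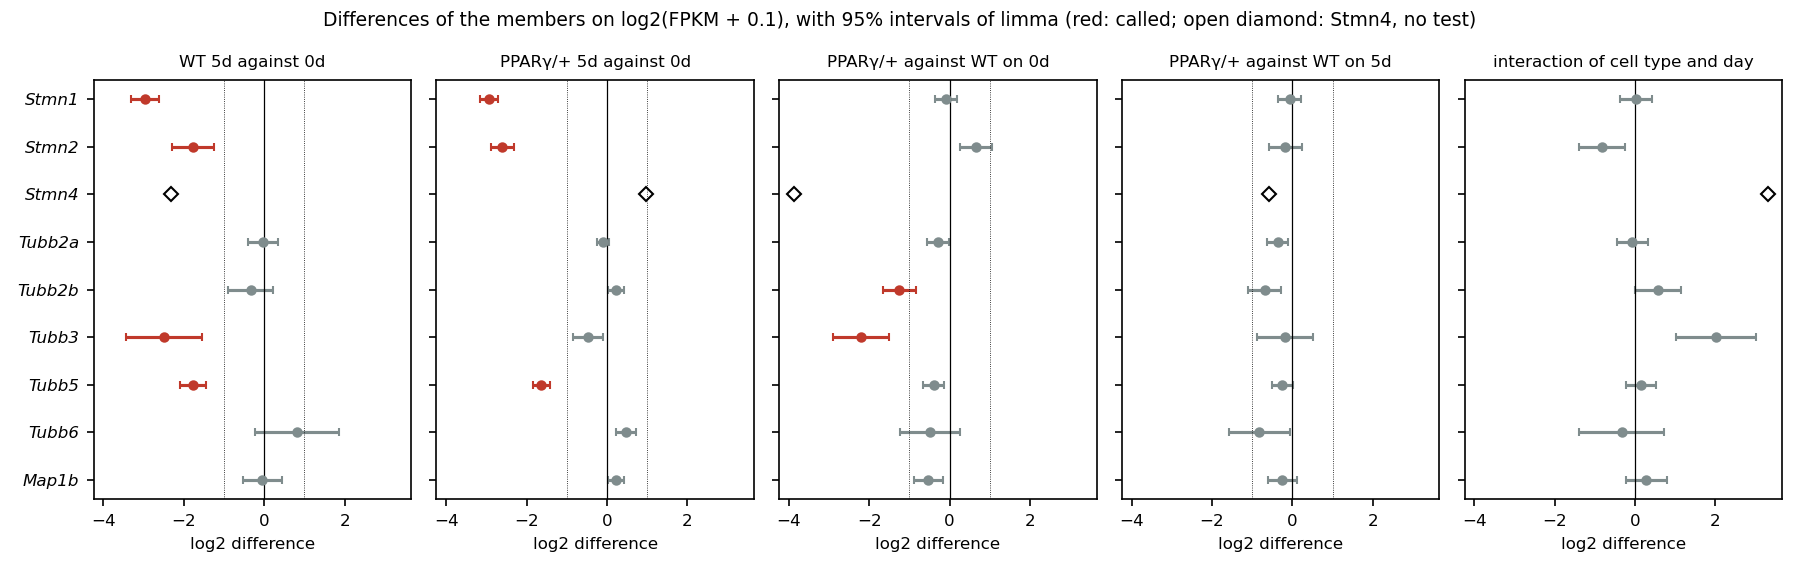
Difference of each gene on log2(FPKM + 0.1) in the 4 comparisons and the interaction, which is the 5d minus 0d difference in PPARγ/+ minus that in WT. Points are estimates with 95% intervals of limma, red where called, dotted lines mark a 2-fold change, and the open diamond is Stmn4, which has no test. The Stmn1 points lie at -2.96 in WT and -2.93 in PPARγ/+ cells, and Tubb2b and Tubb3 are the called genes on 0d.

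Tubb5, the beta-tubulin of proliferating cells, was the member with the highest mean FPKM in WT_0d, PPARγ/+_0d and PPARγ/+_5d. In PPARγ/+_5d its libraries overlapped those of Tubb6. The levels of Tubb5 were 381, 464 and 433 FPKM in WT_0d and 134, 136 and 106 FPKM in WT_5d. In PPARγ/+ cells they were 361, 286 and 329 FPKM on 0d and 103, 109 and 102 FPKM on 5d. Tubb5 fell by 1.77 on the log2 scale in WT cells (SE 0.14, adjusted p = 3.84e-04, 3.42-fold lower) and by 1.63 in PPARγ/+ cells (SE 0.09, adjusted p = 4.75e-05, 3.09-fold lower). The 0d libraries of the cell types did not overlap, but the difference of -0.39 did not pass the test (adjusted p = 0.0851). The interaction was 0.14, with a 95% interval from -0.23 to 0.52.

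Tubb3, the class III isoform used as a marker of neurons, was at 50.4, 52.8 and 33.3 FPKM in WT_0d and at 9.16, 12.2 and 4.30 FPKM in WT_5d. The PPARγ/+ libraries held 7.96, 9.34 and 11.9 FPKM on 0d and 6.12, 6.90 and 7.84 FPKM on 5d. WT_0d thus stood above the 9 other libraries. Tubb3 fell by 2.49 on the log2 scale in WT cells (SE 0.39, adjusted p = 0.00419, 5.62-fold lower). In PPARγ/+ cells the difference was -0.47 (SE 0.16, adjusted p = 0.0495, unadjusted 0.0234), which is under 2-fold and was not called. It was -0.34 under median-ratio scaling and -0.33 under quantile normalization (unadjusted p = 0.0667 and 0.0736). The interaction was 2.02 (95% interval from 1.02 to 3.02) and did not pass the test over all genes (adjusted p = 0.0798), but it did without WT_5d replicate 3 (1.60, adjusted p = 0.0225).

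Tubb6 was at 87.5, 117 and 98.0 FPKM in WT_0d and at 269.8, 241 and 84.3 FPKM in WT_5d. In PPARγ/+ cells it was at 79.6, 60.6 and 76.1 FPKM on 0d and at 96.2, 104 and 100.2 FPKM on 5d. The first 2 WT_5d libraries were the highest of the 12 and the third was below all 3 WT_0d libraries. The WT difference of 0.82 (95% interval from -0.24 to 1.87, adjusted p = 0.193) was not called, and without WT_5d replicate 3 it was 1.35 and was called (unadjusted p = 2.00e-04). In PPARγ/+ cells the difference was 0.48 (SE 0.11, adjusted p = 0.00956), under 2-fold. The order of Tubb6 among the WT_5d libraries was that of the summed muscle marker level, which was lowest in replicate 3. Stmn1, Tubb2a, Tubb2b and Map1b had the same order there. So did the summed level of 20 mitotic cell cycle genes (78.9, 66.0 and 51.2 FPKM), so the order is not particular to Tubb6 or to the muscle markers. The part of the muscle markers in the Tubb6 level was not tested.

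**Figure D3:**
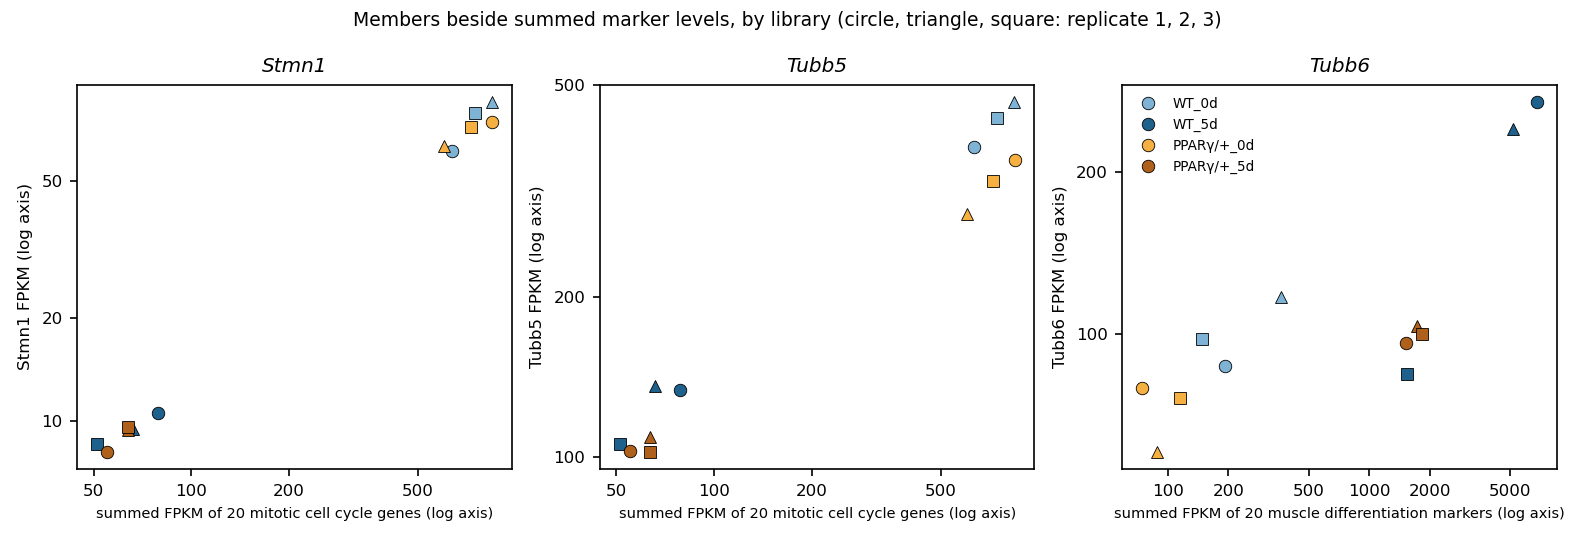
FPKM of Stmn1 and Tubb5 against the summed FPKM of 20 mitotic cell cycle genes, and of Tubb6 against that of 20 muscle differentiation markers, one point per library, all axes logarithmic. The 0d libraries lie between 602 and 845 FPKM of mitotic genes and the 5d libraries between 51.2 and 78.9 FPKM, and WT_5d replicate 3 (dark blue square) lies beside the PPARγ/+_5d libraries in the plot of Tubb6.

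The near-identical pair Tubb2a and Tubb2b was not called between the days in either cell type. Tubb2a was at 116, 118 and 113 FPKM in WT_0d and at 132, 123 and 88.5 FPKM in WT_5d, and in PPARγ/+ cells at 96.8, 92.4 and 92.3 FPKM on 0d and at 83.4, 85.2 and 94.2 FPKM on 5d. Its difference of 5d from 0d was -0.03 in WT cells (95% interval from -0.41 to 0.34) and -0.10 in PPARγ/+ cells (95% interval from -0.25 to 0.05). Both were above 0 under median-ratio scaling and quantile normalization, and the WT difference was 0.14 without WT_5d replicate 3. Tubb2b was at 88.0, 96.3 and 84.0 FPKM in WT_0d and at 92.7, 77.9 and 48.7 FPKM in WT_5d, and in PPARγ/+ cells at 33.8, 39.5 and 39.2 FPKM on 0d and at 41, 43.5 and 46.8 FPKM on 5d. The days overlapped in WT cells (difference -0.34, adjusted p = 0.301), and in PPARγ/+ cells 5d was 0.22 higher with an adjusted p of 0.0623 (unadjusted 0.0310). This rise was 0.35 under both median-ratio scaling and quantile normalization (unadjusted p = 0.00234 and 0.00315), still under 2-fold. Every PPARγ/+ library of Tubb2b lay below every WT library.

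Map1b, which encodes a microtubule-associated protein of growing neurites, was at 25.3, 21.1 and 24.7 FPKM in WT_0d, at 29.3, 24.0 and 16.9 FPKM in WT_5d, at 16.4, 14.9 and 17.7 FPKM in PPARγ/+_0d and at 20, 17.6 and 19.8 FPKM in PPARγ/+_5d. No comparison of Map1b was called. The 0d libraries of the cell types did not overlap, with a difference of -0.53 (adjusted p = 0.0846), and all other pairs of groups compared overlapped. In WT cells its difference was -0.05 (95% interval from -0.54 to 0.43), and it was above 0 under median-ratio scaling and quantile normalization and 0.16 without WT_5d replicate 3. In PPARγ/+ cells it was 0.23 (adjusted p = 0.0591, unadjusted 0.0291), and 0.36 and 0.39 under these 2 scalings (unadjusted p = 0.00499 and 0.00403).

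The comparison of the cell types asked which of these genes differed with PPARγ overexpression on the same day. It used all 12 libraries, an adjusted p of at most 0.05 and a 2-fold change. On 0d Tubb2b and Tubb3 were lower in PPARγ/+ cells, which is 2 of 8 members, against 1.96% of all genes called and 1.39% called lower. The Tubb2b difference was -1.25 (SE 0.18, adjusted p = 0.00432, 2.38-fold lower), and that of Tubb3 was -2.20 (SE 0.32, adjusted p = 0.00420, 4.60-fold lower). The libraries of Tubb2a, Tubb2b, Tubb3, Tubb5, Tubb6 and Map1b, 6 of 8, did not overlap and were all lower in PPARγ/+_0d, where 26.8% of all genes did not overlap and 13.1% were lower in this way. Stmn2 was 0.65 higher, with an adjusted p of 0.0665 and overlapping libraries.

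On 5d, limma called 0 of 8 members (1.10% of all genes). At an unadjusted p under 0.05 there were 3 of 8, Tubb2a, Tubb2b and Tubb6, all lower, against 2766 of all 18023 genes. Tubb2b differed by -0.69 (adjusted p = 0.0973) and was the only member of the 8 without overlap, against 18.5% of all genes. Tubb6 differed by -0.82 (adjusted p = 0.289), and by -1.35 without WT_5d replicate 3 (adjusted p = 3.44e-04, called), a setting in which 4.42% of all genes were called. For Tubb3 the difference was -0.18, with a 95% interval from -0.89 to 0.53, and it was 0.14 without WT_5d replicate 2.

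The interaction asked whether WT and PPARγ/+ cells changed by different amounts from 0d to 5d, at an adjusted p of at most 0.05. limma called 0 of 8 members (0.76% of all genes). Of the 8, 2 had an unadjusted p under 0.05, Tubb3 and Stmn2, against 2164 of all 18023 genes. Without WT_5d replicate 3, Tubb3 (1.60) and Tubb6 (-0.87, adjusted p = 0.0350) were called, as were 2.92% of all genes.

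FPKM is scaled by the exon length assigned to each gene, from 1584 bases for Tubb2a to 3327 for Tubb5 among the beta-tubulin members. The isoforms are set against each other within a library on this scale, which is not a count of messages where the cells use shorter transcripts. The 8 beta-tubulin genes together had 908 ± 73.4 FPKM in WT_0d, 559 ± 174 in WT_5d, 658 ± 54.4 in PPARγ/+_0d and 378 ± 14.0 in PPARγ/+_5d (mean ± SD, 3 libraries). The 4 alpha-tubulin genes Tuba1a, Tuba1b, Tuba1c and Tuba4a together had 981 ± 78.3, 567 ± 145, 672 ± 70.0 and 439 ± 21.4 FPKM in the same order. Both sums were thus lower on 5d in each cell type, with more spread in WT_5d than elsewhere.

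Tubb5 made up 46.9 ± 1.63% of the beta-tubulin sum in WT_0d and 23.4 ± 5.18% in WT_5d, and 49.4 ± 1.68% and 27.7 ± 1.17% in PPARγ/+ cells on these days. The share of Tubb6 was 11.1 ± 0.744% in WT_0d and 33.6 ± 8.89% in WT_5d, and 10.9 ± 0.718% and 26.5 ± 0.597% in PPARγ/+ cells. In WT_5d the Tubb6 share was 39.5% and 38.0% in replicates 1 and 2 and 23.4% in replicate 3. The share of Tubb2a was 12.7% in WT_0d, 21.1% in WT_5d, 14.3% in PPARγ/+_0d and 23.2% in PPARγ/+_5d. Tubb2b had a share of 5.75 ± 0.916% in PPARγ/+_0d, against 9.86 ± 0.528% in WT_0d. Tubb3 had 5.02 ± 1.16% in WT_0d and between 1.13% and 2.02% in each library of the other 3 groups. The rest was almost all Tubb4b, with 14.4% and 18.1% on 0d and 7.16% and 9.18% on 5d in WT and PPARγ/+ cells.

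**Figure D4:**
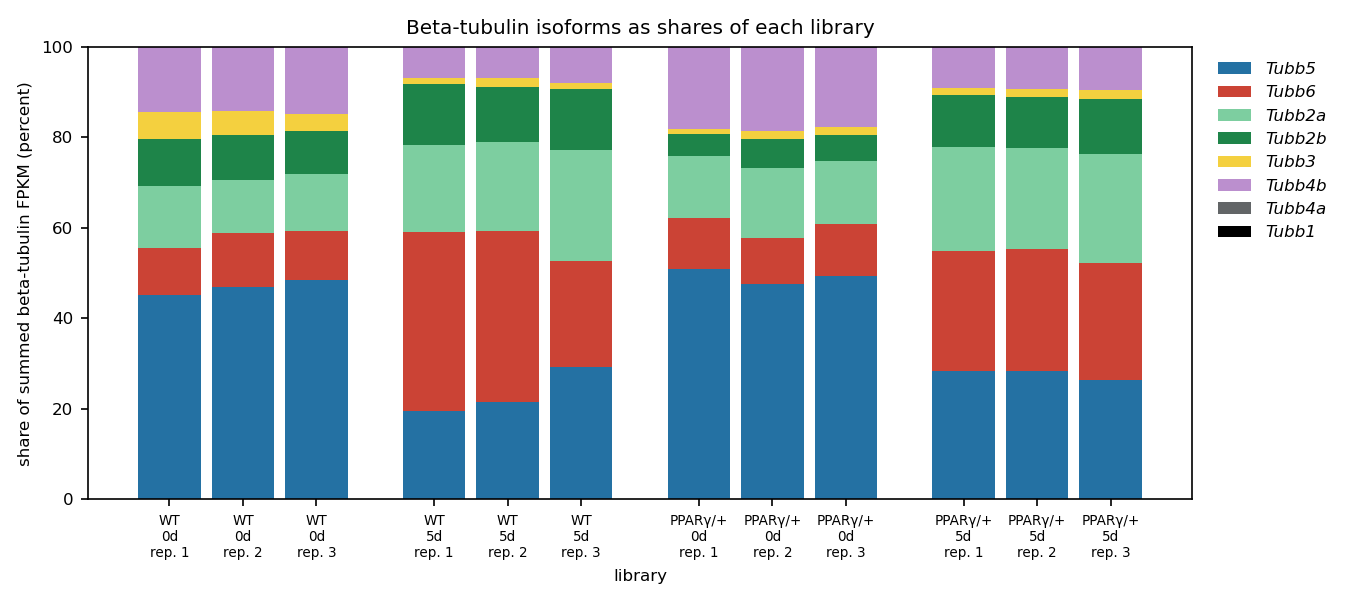
Share of each of 8 beta-tubulin genes in the summed beta-tubulin FPKM of each library, in percent, one bar per library. The Tubb5 share is between 45.2% and 51.0% on 0d and between 19.5% and 29.3% on 5d, and the Tubb6 share is highest in WT_5d replicates 1 and 2.

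In order of mean FPKM, Tubb5 led in WT_0d, followed by Tubb2a, Tubb6, Tubb2b and Stmn1, and from Tubb2a on each overlapped with the next. In WT_5d the order was Tubb6, Tubb5, Tubb2a and Tubb2b, again with overlap from each to the next, then Map1b, Stmn1, Tubb3, Stmn2 and Stmn4. In PPARγ/+_0d Stmn2 (19.1 ± 2.98 FPKM) stood above Tubb3 (9.75 ± 2.02 FPKM) without overlap, where in WT_0d Tubb3 (45.5 ± 10.6 FPKM) stood above Stmn2 (12.4 ± 3.90 FPKM). In all 4 groups Stmn4 and Stmn3 were the lowest of the 10. FPKM divides by all annotated exon bases of a gene, 5602 for Stmn2, 1922 for Stmn1 and 1868 for Tubb3. The transcripts used by the cells may be shorter, so these are orders of FPKM and not of message number.

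Other genes of the microtubule system were taken from lists of known function. Of 10 other tubulins tested, 5 fell in WT cells and 4 in PPARγ/+ cells and none was called higher. Their median difference was -0.90 and -0.92, against -0.08 and -0.10 for all genes. Tubb4b fell by 1.76 on the log2 scale in WT (adjusted p = 0.00105) and by 1.77 in PPARγ/+ cells (adjusted p = 1.88e-05), and Tube1, epsilon-tubulin of centrioles, fell by 2.11 and 1.85 (adjusted p = 4.95e-04 and 3.45e-04).

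Of 12 genes for proteins that sever or depolymerize microtubules, 5 fell and 1 rose in WT cells, and 4 fell and 0 rose in PPARγ/+ cells. The median differences were -0.58 and -0.88. The kinesins Kif18b and Kif2c shorten microtubules in mitosis. Kif18b changed by -3.69 in WT and -3.78 in PPARγ/+ cells (adjusted p = 1.63e-04 and 1.53e-05), and Kif2c by -3.63 and -3.77 (adjusted p = 2.20e-04 and 1.67e-05). The one that rose in WT cells, Kif19a, did so from 0.0418 to 0.290 FPKM, and it was not called with a pseudocount of 1 or a filter at 1 FPKM.

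Of 26 further microtubule-associated protein genes, 4 rose and 1 fell in WT cells, and 3 rose and 1 fell in PPARγ/+ cells, with medians of -0.09 and -0.19. These are 19.2% and 15.4% of the list, against 16.5% and 15.2% of all genes. At an unadjusted p under 0.05 without a limit on the fold, 7 were higher and 10 lower in WT cells and 7 higher and 11 lower in PPARγ/+ cells. Of all 18023 genes, 8440 in WT and 9808 in PPARγ/+ cells passed this limit. With a pseudocount of 1 none of the list was called higher in PPARγ/+ cells. Ckap5, a microtubule polymerase, fell by 1.17 and 1.23 (adjusted p = 6.92e-04 and 3.75e-05). Dclk1, a doublecortin-like kinase, rose by 1.77 in WT cells (adjusted p = 0.00205) and Mapt, the gene of tau, by 2.07 (adjusted p = 0.0245), from 0.220 to 1.41 FPKM. In PPARγ/+ cells Dclk2 rose by 1.04 (adjusted p = 4.34e-04) and Map2 by 1.16 (adjusted p = 0.0102), the latter from 0.0942 to 0.332 FPKM. The means of Dclk1 and Mapt were also higher on 5d in PPARγ/+ cells (18.5 to 37.2 and 0.0986 to 0.284 FPKM). That of Dclk2 was higher on 5d in WT cells (3.49 to 6.06 FPKM), and that of Map2 was not (0.713 and 0.698 FPKM). Map2 was also the 1 gene of this list called between the cell types on 0d (-2.0, adjusted p = 0.0458), a call that was lost with a pseudocount of 1, with either other filter, with either other scaling, with the replicate block and on leaving out any library but WT_5d replicates 1 and 3. Without WT_5d replicate 3, 2 genes of this list were called lower in PPARγ/+ cells on 5d and 2 in the interaction, against 4.42% and 2.92% of all genes called. With array weights 2 were called lower on 5d and 6 in the interaction, against 7.56% and 11.5% of all genes.

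Of 22 genes for the folding of tubulin and the autoregulation of its messages, limma called 0 in either cell type under the 2-fold rule. On leaving out one library, up to 3 were called lower in WT cells and 2 in PPARγ/+ cells. At an unadjusted p under 0.05 there were 18 in WT and 20 in PPARγ/+ cells, of which 16 and 17 were lower. Of all 18023 genes, 8440 and 9808 passed this limit. The medians of the 22 genes were -0.64 and -0.67. Ttc5, which recognises nascent tubulin and triggers decay of its message, was at 15 ± 2.27, 14.1 ± 0.361, 16.1 ± 0.306 and 16.3 ± 0.965 FPKM in WT_0d, WT_5d, PPARγ/+_0d and PPARγ/+_5d. Of 21 tubulin-modifying enzymes, 1 was called, Tpgs2 of the polyglutamylase complex, which fell by 1.11 in WT cells (adjusted p = 3.39e-04), a call lost with a pseudocount of 1 and with median-ratio scaling. None of the tubulin, severing, folding and modifying genes of these lists was called between the cell types on either day or in the interaction. Between 0 and 4 of each list had an unadjusted p under 0.05 there. Of all 18023 genes, 3831 on 0d, 2766 on 5d and 2164 in the interaction passed this limit. Without WT_5d replicate 3, 2 severing genes and 1 modifying gene were called lower in PPARγ/+ cells on 5d, 1 modifying gene on 0d and 1 severing gene in the interaction. With array weights 1 severing gene was lower on 5d and 1 modifying gene on 0d. In the interaction, array weights called 2 severing genes lower, and 3 modifying genes higher and 2 lower. All-gene shares on 0d, on 5d and in the interaction were 2.72%, 4.42% and 2.92% without the library and 3.08%, 7.56% and 11.5% with array weights.

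Markers of other states of the cells were set beside these results. All 20 mitotic cell cycle genes fell in both cell types, with median differences of -3.43 and -3.53. Cdc20, which activates the anaphase-promoting complex, changed by -3.96 in WT and -4.08 in PPARγ/+ cells (adjusted p = 9.82e-05 and 1.61e-05), and Ccnb1, cyclin B1, by -3.98 and -3.96 (adjusted p = 2.05e-04 and 1.53e-05). Their summed level ranged from 635 to 843 FPKM in WT_0d, from 51.2 to 78.9 in WT_5d, from 602 to 845 in PPARγ/+_0d and from 55.2 to 63.8 in PPARγ/+_5d. None of the 20 was called between the cell types on either day, and 0 and 1 had an unadjusted p under 0.05, against 3831 and 2766 of all 18023 genes. The part of cell cycle exit in the lower Stmn1, Stmn2 and Tubb5 was not tested, and in these bulk samples fewer cells of a type and less RNA per cell cannot be told apart.

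Beside Tubb3 and Stmn4 stand the neuronal markers, whose summed level over 15 genes ranged from 30.7 to 39.9 FPKM in WT_0d, from 19.8 to 21.3 in WT_5d, from 14.4 to 15.4 in PPARγ/+_0d and from 16.8 to 17.2 in PPARγ/+_5d. Of 7 tested, 4 were lower in PPARγ/+ cells on 0d and 2 on 5d, 3 fell in WT cells, and 1 rose and 1 fell in PPARγ/+ cells. Map2, counted above among the microtubule-associated protein genes too, was 1 of the 4 on 0d and the 1 that rose. Its call on 0d was lost under most alternatives, as given there. On leaving out each library, 3 or 4 of the list were called lower on 0d. With a pseudocount of 1 or a filter at 1 FPKM the 5d calls between the cell types and the calls in PPARγ/+ cells were all lost, and the 5d calls also with the replicate block, in a fit of that day alone and on leaving out any 5d library but WT_5d replicate 3. The neurofilament genes Nefl and Nefm were at 7.49 ± 1.77 and 5.98 ± 0.921 FPKM in WT_0d and at or under 0.323 FPKM in every library of the other groups. Eno2, a large part of the summed level, went the other way and had a higher mean on 5d in both cell types. It was at 8.45 ± 0.933 FPKM in WT_0d, 14.4 ± 2.54 in WT_5d, 9.61 ± 0.480 in PPARγ/+_0d and 12.6 ± 0.904 in PPARγ/+_5d. The part of the neuronal markers in Tubb3 and Stmn4 was not tested. REST, a repressor of neuronal genes, and 8 of its corepressors had no called gene in any comparison (1 in the interaction with array weights). At an unadjusted p under 0.05 there were 6, 7, 2, 1 and 0 of 9 in the 4 comparisons and the interaction. Among all 18023 genes, 8440, 9808, 3831, 2766 and 2164 passed the same limit. Rest itself was at 6.73 ± 0.450, 6.78 ± 0.311, 6.94 ± 0.547 and 6.75 ± 0.657 FPKM in the 4 groups.

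Muscle markers were called lower in PPARγ/+ cells for 2 of 20 genes on 0d and 2 of 20 on 5d, and without WT_5d replicate 3 for 5 on 0d, 12 on 5d and 3 in the interaction. Over all alternatives these counts ran from 1 to 7 on 0d and from 0, in a fit of that day alone, to 18 on 5d, with array weights. The 2 genes on 0d were Actc1 (-2.90, adjusted p = 0.0450) and Myf5 (-1.58, adjusted p = 0.00165). Unlike most of the list, Myf5 was called lower on 5d in WT cells (-1.46), and its mean on 5d was higher in PPARγ/+ than in WT cells. Of 9 adipocyte markers, 6 rose in PPARγ/+ and 1 in WT cells from 0d to 5d, and 3 on 0d (1 with a pseudocount of 1) and 6 on 5d (2 in a fit of that day alone) were higher in PPARγ/+ cells. Of 7 fibroblast markers, 5 rose in WT and 6 in PPARγ/+ cells, and 2 were lower in PPARγ/+ cells on 0d, with 1 or none called under 15 of the alternatives, a pseudocount of 1 and a fit of that day alone among them. The part of these markers in the members' levels was not tested.

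The genes whose pattern over the 12 libraries was most like that of a member were found by Pearson's r on log2(FPKM + 0.1) among 11681 genes with a mean of at least 1 FPKM. These r run over 4 groups of the same cell line that differ in cell type and day, so the differences between the groups enter them. They carry no test. Stmn1 was most like Foxm1, Prr11 and Kif22 (r = 0.999, 0.999 and 0.999), which are genes of dividing cells. Tubb5 was most like Tuba1c, an alpha-tubulin gene (r = 0.998), Uhrf1 (0.997) and Cdc7 (0.995). Stmn2 was most like Poc5, Ing1 and Ckap2 (r = 0.986, 0.982 and 0.978).

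Tubb3 was most like Prep, Basp1 and Esyt1 (r = 0.975, 0.971 and 0.970), all highest in WT_0d. Stmn4 was most like Tlnrd1, the transcription factor gene Atf3, and 4931428F04Rik (r = 0.971, 0.956 and 0.951). Tubb2b was most like Dync1i1, a chain of cytoplasmic dynein (r = 0.980), with 2.0 and 1.97 FPKM in WT_0d and WT_5d and 0.150 and 0.301 FPKM in PPARγ/+ cells, and then Rps6ka2 and Lbh (0.977 and 0.973). Tubb6 was most like Ptp4a2, Ank1 and Rassf3 (r = 0.987, 0.975 and 0.971). Map1b was most like Sipa1l2 (r = 0.925), Cers6 and Gm9844 (0.918 and 0.906).

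The promoter of Tubb5, which fell in both cell types, is shown as the 250 bases before the start of the gene in RefSeq (GRCm38.p6), at chr17:35838302-35838551 on the minus strand, of which the last 5 lie inside the gene as placed above. Capitals mark the motifs found, of the E-box CANNTG, the CCAAT box CCAAT, the cell cycle homology region TTTGAA and the GC box GGGCGG, searched on both strands.
Tubb5: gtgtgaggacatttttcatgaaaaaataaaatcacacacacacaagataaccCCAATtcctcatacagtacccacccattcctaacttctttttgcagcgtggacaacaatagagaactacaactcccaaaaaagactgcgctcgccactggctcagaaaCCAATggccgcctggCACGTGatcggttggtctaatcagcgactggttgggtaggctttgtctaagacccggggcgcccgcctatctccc
The window held 2 CCAAT boxes and 1 E-box and none of the other motifs. Of 32841 promoter windows of this length, 66.2% held an E-box, 33.9% a CCAAT box, 16% the cell cycle homology region and 32.7% a GC box, so these letters are common. A match is a description of the sequence and not a bound site.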

How the data were processed

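RNA of the 12 libraries was prepared with a TruSeq v2 kit and sequenced in pairs. Reads were trimmed by the authors (Trim Galore), mapped (STAR) and counted per Ensembl gene (HTSeq), and the values they deposited are FPKM of all annotated genes. The study names the genome GRCm38, while the submitters' processing notes name mm9. A further table deposited by the authors holds log2(FPKM + 1) to within 5.3e-14 and was not used for tests. Any pair of libraries differed at 21594 or more genes. Fragments were recovered from FPKM, gene length and the mapped pairs the study gives. They came out whole, within 0.01, with the annotated length for 21224 genes and with an inferred length for 5913, and not for 1. Tubb2a, Tubb2b, Tubb6 and Map1b had an inferred length.

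Tests used limma 3.58.1 in R 4.3.3, with trended empirical Bayes moderation, on log2(FPKM + 0.1) of the 18023 genes with at least 0.1 FPKM in at least 3 libraries. Days were compared within each cell type on its own 6 libraries and called, as by the study, at an unadjusted p of at most 0.05 and a change of at least 2-fold. Cell types on each day and the interaction were fitted on the 12 libraries together and called where the Benjamini-Hochberg adjusted p did not exceed 0.05, the former also with a 2-fold change. Adjusted p-values are over all genes tested. Scripts were tested on simulated data. Tables were handled with Python 3.11.15, pandas 2.3.3 and numpy 2.4.6 and drawn with matplotlib 3.10.9, and coding sequences were aligned with Biopython 1.88. Gene symbols and positions came from the reference annotation for 46488 of 46983 genes. RefSeq promoters matched 5 of the 10 members.

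The members and the gene lists were chosen with earlier results of these data known, so none is independent evidence. Genes other than the members are named as the 2 highest and 2 lowest called of each list in each comparison, and as the 3 most like each member, except for Tubb2a, for which this is not reported here. Rest, Ttc5, the alpha-tubulins and the neuronal markers at 0 were named for their role, and Eno2 as a neuronal marker that went the other way. Alternatives were a pseudocount of 1 or 0.01, other filters, median-ratio scaling, quantile normalization, array weights, other sets of libraries in the fit, a replicate block and leaving out each library.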

Additional observations from a re-analysis of the deposited data

Results flagged for a closer look

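Stmn4 was singled out because all 3 libraries of 5d lay below those of 0d in WT cells (log2 difference -2.31) and above them in PPARγ/+ cells (0.98). The difference between the 2 changes was not tested, since the gene was chosen for it.

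By the interaction in limma, WT and PPARγ/+ cells changed by different amounts from 0d to 5d for 2 neuronal markers and 1 muscle marker of the lists. For Nefl the interaction was 3.98 (adjusted p = 0.00130) and for Nefm 2.85 (adjusted p = 0.0154). Nefl had 428 to 745 fragments per library in WT_0d but 0 or 1 in PPARγ/+_5d, and Nefm 2 or 3 there, at or under the floor of 3 fragments, so the sizes of both depend on the value added to the FPKM, and with 0.01 in place of 0.1 neither was called. Myf5, an early myogenic factor, had an interaction of 2.20 (adjusted p = 0.00844), with 12 ± 0.988 and 4.43 ± 1.33 FPKM in WT_0d and WT_5d and 3.96 ± 0.297 and 6.78 ± 1.51 FPKM in PPARγ/+_0d and PPARγ/+_5d.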

How the results depend on the processing

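Of the values of the 8 tested members under alternatives, 759 kept their side of the threshold and 9 passed it, and no call was lost or turned. Of the values not called, 21 changed sign, all small ones of Stmn1, Tubb2a, Tubb3 or Map1b. Those that passed were Tubb6 in WT cells (array weights 1.19, without WT_5d replicate 3 1.35), Tubb6 between the cell types on 5d (-1.24 and -1.35), and in the interaction Stmn2 (array weights -1.02, without WT_0d replicate 2 -1.07), Tubb3 (1.28 and, without WT_5d replicate 3, 1.60) and Tubb6 (without WT_5d replicate 3, -0.87). With array weights the members called were therefore 1 on 5d and 2 in the interaction. Leaving out each library gave 4 to 5 members called in WT cells, 3 in PPARγ/+ cells, 2 on 0d, 0 to 1 on 5d and 0 to 2 in the interaction. For Stmn4 it gave -2.69 to -1.88 in WT and 0.93 to 1.06 in PPARγ/+ cells, for the Tubb5 share 46.1 to 47.7%, 20.5 to 25.4%, 48.5 to 50.2% and 27.4 to 28.4%, for Tubb6 10.7 to 11.4%, 30.7 to 38.7%, 10.7 to 11.3% and 26.2 to 26.8%, and for Tubb3 4.53 to 5.66%, 1.27 to 1.63%, 1.34 to 1.68% and 1.74 to 1.91% in WT_0d, WT_5d, PPARγ/+_0d and PPARγ/+_5d. The Stmn4 difference was -1.47 and 0.28 with a pseudocount of 1, 1.32 in PPARγ/+ cells with 0.01, and 0.80 there after quantile normalization. With only the 5 members in the beta-tubulin sum, shares rose by construction, to 54.8, 60.3 and 30.5% for Tubb5 and 12.9, 13.3 and 29.1% for Tubb6 in WT_0d, PPARγ/+_0d and PPARγ/+_5d, and to 2.02% for Tubb3 in PPARγ/+_5d. Median-ratio scaling moved the median of all genes from -0.08 to 0.02 in WT and from -0.10 to 0.02 in PPARγ/+ cells. Over all genes, the 2970, 2735, 353, 199 and 137 called in WT, in PPARγ/+, on 0d, on 5d and in the interaction became 1441, 1241, 120 and 95 with a pseudocount of 1 in the first 4, 1806 in PPARγ/+ and 93 on 5d with a filter at 1 FPKM, 555, 1363 and 2070 with array weights in the last 3, and 699 and 720 on 0d and 5d with an unadjusted p. They were 28 on 5d in a fit of that day alone and 61 in the interaction with the replicate block. Without WT_5d replicate 3 they were 796 on 5d and 527 in the interaction, without PPARγ/+_0d replicates 2 and 3 they were 180 and 226 on 0d, and leaving out one of the other libraries gave as few as 78 on 5d and 42 in the interaction. The cause of the other shifts was not tested. Same-numbered libraries did not deviate together (r from -0.07 to 0.08, 0 of 18 pairs above 0.1), and a fit with the replicate number as a block called 4, 3, 2, 0 and 0 members, as without it.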
